A study of Mus musculus with 38 samples.

Results

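The comparison described here is the first mitosis of the mouse embryo, read from polysome-bound RNA: zygotes in M-phase (zygote M) against zygotes in interphase (zygote). Its samples were chosen by their labels, as the heavy-gradient columns of the 2 stages, 3 of each, and make 6 of the 36 samples with values in the expression table. All embryos came from ICR mice of at least 6 weeks, superovulated and mated within the strain, with no transgene or mutation. Interphase zygotes were taken in the pronuclear stage when they were recovered from the oviduct. Zygote M embryos were cultured further in KSOM medium and treated with nocodazole, a drug that depolymerizes microtubules, so M-phase, the drug, the culture and the later time cannot be told apart. The labels give zygote M the treatment M-phase of meiosis and zygote the treatment WT, whereas the titles and the study's methods describe the first mitosis. Lysates of cycloheximide-treated embryos had been spun through sucrose gradients and collected as 10 fractions, of which the 5 lighter were pooled as non-polysome (NP) RNA and the 5 heavier as polysome RNA. How many embryos went into a sample is not given in the labels.

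Polysomes are strings of ribosomes on one mRNA, and RNA that sediments with them is taken as being translated. The zygote lives mainly on mRNA made in the oocyte. Much of that mRNA is stored with a short poly(A) tail and is moved onto or off polysomes when the tail is lengthened or removed. In the 3′ UTR, the cytoplasmic polyadenylation element (CPE), bound by CPEB proteins, together with the polyadenylation hexamer marks mRNAs whose tails are lengthened in a timed manner during oocyte maturation. M-phase itself is driven by cyclin-dependent kinase 1 with its cyclin, and is ended by the anaphase promoting complex (APC/C), which its activator Cdc20 directs to securin and the cyclins.

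Because such sites bear on which maternal mRNAs enter polysomes, 3′ UTR windows of 30 bases are shown for 8 genes that rose and 2 that fell. They are given as DNA on the transcript strand, 5′ to 3′, with CPE letters (TTTTAT or TTTTAAT) and the hexamer AATAAA in capitals. All come from the GENCODE transcripts of the GRCm38 build, in the last 100 bases of the transcript.
Cdc20 (chr4:118432908-118432937, minus strand): taTTTTATtttttctAATAAAgttcgtatc
Cks2 (chr13:51650608-51650637, plus strand): tgTTTTATtttacctgttttgttaAATAAA
Magoh (chr4:107887356-107887385, plus strand): atTTTTATaaacAATAAAtgatgatcttta
Rps27l (chr9:66949483-66949512, plus strand): gtcagtttttcAATAAAgTTTTAATtatgg
Cks1b (chr3:89415472-89415501, minus strand): ttgattaaaggaagttTTTTATaatcttaa
Bcl2l10 (chr9:75351589-75351618, plus strand): atTTTTAATaacttcaaattcttAATAAAt
Omt2a (chr9:78312006-78312035, minus strand): ggTTTTATAATAAATAAAagtttcaggcag
Tcl1 (chr12:105216787-105216816, minus strand): gaTTTTATgtggttctattttagagatacg
Txnip (chr3:96561828-96561857, plus strand): ttgtaaaaaaaAATAAAgttTTTTAATgac
Ube2t (chr1:134974091-134974120, plus strand): tgTTTTATttatcttgtacatatgtattta
The hexamer lies inside the window of Cdc20, Cks2, Magoh, Rps27l, Bcl2l10, Omt2a and Txnip, and not in that of Tcl1, Cks1b or Ube2t. These genes were picked by hand from the called genes of the lists and named sets that hold CPE letters. Of those counted, 14 of 19 that rose and 2 of 8 that fell have the hexamer in the window. The count leaves out a chromosome, and with it Ndufa2, a called fall with CPE letters and no hexamer in its last 100 bases. Cdc20 has a 3′ UTR of 62 bases, and its CPE starts 35 bases before the end.

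Of 7967 genes tested, 258 were higher and 200 lower in zygote M polysomes (limma over all 36 samples, adjusted p under 0.05 and more than 2-fold), which is 3.24% and 2.51%. The genes that rose included the APC/C activator Cdc20, securin (Pttg1), the Cdk-binding proteins Cks1b and Cks2, and Tcl1-family and Omt2 genes of the oocyte and early embryo. The genes that fell included mRNAs of ribosome assembly factors, ribosomal proteins, the spindle protein Tacc3 and the subcortical maternal complex. Protein-coding genes made up 154 of those that rose and 158 of those that fell, and pseudogenes 59 and 38. FPKM values are shares of a library, so a loss of total RNA from the polysomes would not be seen in them, and fewer embryos cannot be told apart from less RNA per embryo. With limma fitted to the 6 samples alone, 906 genes were higher and 1729 lower (11.4% and 21.7%). Of the 458 genes called with all samples, 449 were also called in the same direction with 6 samples, and none in the opposite one. When each of the 6 samples was left out in turn, 159 of the rises and 67 of the falls were called in every fit. Leaving out zygote B, C or D gave 98, 95 and 98 falls, and leaving out zygote M replicate A or B gave 125 and 110. All genes tested had a median log2 fold change of -0.43. The rises were 56.3% of the calls, against 45.4% with libraries scaled to equal FPKM sums and 34.4% with the 6 samples alone. The groups did not overlap, with zygote M above, in 19.4% of the genes tested and, with zygote M below, in 37.2%.

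**Figure D1:**
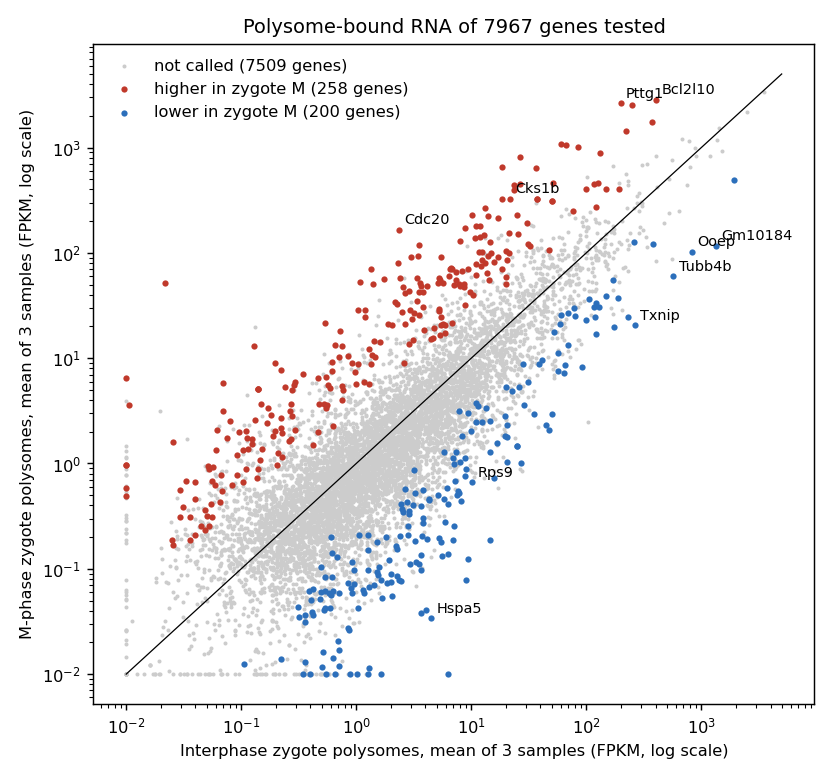
Mean FPKM of each gene tested in the 3 interphase (x axis) and the 3 M-phase (y axis) zygote polysome samples, both on log scales, with the line of equality. Red points are the 258 genes called higher and blue points the 200 genes called lower in zygote M; Cdc20 lies far above the line and Txnip, Ooep and Tubb4b below it.

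The depths of the samples were estimated roughly, from the spacing of the lowest values, and overlapped. The estimates were 20500000 to 23300000 fragments in zygote and 21100000 to 24700000 in zygote M. FPKM sums did not overlap, at 88751 to 96535 in zygote and 105936 to 112507 in zygote M. Genes above 0.1 FPKM numbered 10009 to 10078 in the zygote samples and 8611 to 9283 in zygote M, with no overlap (exact permutation test, two-sided p = 0.1, the smallest that 3 against 3 samples allow). Pearson's r of log2 values was 0.956 to 0.961 among zygote samples, 0.841 to 0.898 among zygote M samples and 0.697 to 0.792 between them. Zygote M replicate B had the lowest of these values and the fewest genes above 0.1 FPKM. The samples held oocyte and zygote RNA: all 20 oocyte markers were tested, with summed FPKM of 2250.3 to 2469 in zygote and 3305 to 4337 in zygote M. That gain is smaller than the gain of Bcl2l10 alone, and the markers' median log2 fold change was -1.24 (-1.49 to -0.98 over the processing alternatives). In a fit to the 6 samples 3 markers were higher and 12 lower (15% and 60%, against 11.4% and 21.7% of all genes tested). Cumulus and granulosa markers summed to at most 0.486 FPKM over 16 genes in any of the 6 samples, oviduct markers to at most 1.05 over 10, blood markers to at most 1.29 over 7 and sperm markers to at most 5.27 over 9. Features made of or overlapping ribosomal RNA, 7SL and similar repeats moved with M-phase: 14 of 18 rose. Their summed FPKM lay between 82.9 and 108 in zygote and between 404 and 1153 in zygote M. When 1 sample was left out in turn, Gm26917, Gm23935, Gm24245, Gm24270, Gm24616 and Gm25395 were each called in 3 of 6 fits. Gm26916 was called in 4. The part of the repeat-derived features in the other results was not tested.

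Among the regulators of mitotic exit, Cdc20 rose most, and no protein-coding gene with at least 10 FPKM in either group rose more. Cdc20 had 2.02, 3.37 and 1.65 FPKM in the interphase samples and 214, 111 and 172 FPKM in the M-phase samples, so the groups lay far apart (log2 fold change 6.16, SE 0.36, adjusted p = 1.87e-12). In NP RNA it had 34.0, 47.2 and 43.0 FPKM in interphase and 189, 102 and 171 FPKM in M-phase. Its mean polysome FPKM was 5.67% of its mean NP FPKM in interphase and 108% in M-phase. Of the 31-base words of its transcript, 27.4% also occur in other genes, 25.1% in the pseudogene Gm7856, so its value carries that uncertainty. Gm7856 had a mean of 0.0513 FPKM in interphase and 0.944 FPKM in M-phase. Pttg1 encodes securin, the inhibitor of separase that APC/C marks for degradation. It had 259, 105 and 232 FPKM in the interphase samples and 2939, 2166 and 2846 FPKM in the M-phase samples and rose with no overlap (log2 fold change 3.83, SE 0.37, adjusted p = 2.61e-08). Mad2l2, a subunit of DNA polymerase zeta that also binds the APC/C activator Cdh1, went from 4.14, 4.38 and 5.41 to 14.8, 17.4 and 14.9 FPKM (log2 fold change 1.76, SE 0.42, adjusted p = 0.00840). These 3 were the called members of a list of 27 tested APC/C and spindle checkpoint genes, of which none fell, and the list's median log2 fold change was -0.55. Each alternative changes 1 processing choice, fits a subset of samples or leaves out 1 sample, except the replicate block on the 6 samples. That one changes the set of samples and adds the block. Over the alternatives the list's median ran from -0.80 to -0.19, and without zygote M replicate C it was -0.26. With the 6 samples alone, 9 of the list were higher and 8 lower (33.3% and 29.6%, against 11.4% and 21.7% of all genes tested). Mad2l1, the checkpoint protein that holds Cdc20, had 3.95, 3.73 and 3.91 FPKM in the interphase samples and 16.8, 9.72 and 22.1 FPKM in the M-phase samples; it was called with the 6 samples (adjusted p = 0.00450) and not with all (adjusted p = 0.195). Fzr1, which encodes Cdh1, had 48.3, 52.3 and 48.1 FPKM in the interphase samples and 39.2, 61.6 and 44.3 FPKM in the M-phase samples, with overlapping groups.

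Cks1b and Cks2, small proteins that bind cyclin-dependent kinases, both rose. Cks1b had 22.4, 17.7 and 25.3 FPKM in the interphase samples and 388, 270.2 and 324 FPKM in the M-phase samples (log2 fold change 3.91, SE 0.36, adjusted p = 1.78e-08). Cks2 had 1.23, 1.02 and 1.31 FPKM in the interphase samples and 37.3, 27.0 and 22.3 FPKM in the M-phase samples (log2 fold change 4.58, SE 0.45, adjusted p = 3.08e-08). The pseudogene Gm15452 holds 31.7% of the 31-base words of Cks2 and rose as well (log2 fold change 4.93, SE 0.50, adjusted p = 5.13e-08), so the reads of this pair are hard to part. Ccna2, cyclin A2, was higher at a smaller size, with 5.90, 6.19 and 5.69 FPKM in the interphase samples and 21.5, 13.5 and 17.01 FPKM in the M-phase samples (log2 fold change 1.52, SE 0.45, adjusted p = 0.0413). Cdk1 itself was lower: it had 8.56, 9.73 and 11.4 FPKM in the interphase samples and 2.31, 1.99 and 1.74 FPKM in the M-phase samples (log2 fold change -2.30, SE 0.61, adjusted p = 0.0200). Cyclin B1 (Ccnb1), the partner of Cdk1 in M-phase, had 121, 86.6 and 97.0 FPKM in the interphase samples and 102, 57.6 and 137 FPKM in the M-phase samples, and its groups overlapped (adjusted p = 0.968). Of 33 tested genes of cyclins, Cdk1 and their regulators, 3 rose and 1 fell. In the 6-sample fit 8 were higher and 10 lower (24.2% and 30.3%, against 11.4% and 21.7% of all genes tested). The list's median was -0.47 (-0.71 to -0.11 over the alternatives). The mitotic kinases Plk1 and Aurka, which act in spindle assembly, were not called with all samples. Plk1 had 108, 99.2 and 108 FPKM in the interphase samples and 37.9, 38.02 and 53.7 FPKM in the M-phase samples (adjusted p = 0.445, and 0.00287 with the 6 samples). Aurka had 57.4, 55.0 and 53.7 FPKM in the interphase samples and 19.5, 14.8 and 18.8 FPKM in the M-phase samples (adjusted p = 0.163, and 0.000855 with the 6 samples). The groups of both lay apart, with M-phase below. The call of Ccna2 was lost when any one of the 6 samples was left out (adjusted p 0.0640 to 0.167), and that of Cdk1 held only without zygote M replicate A (adjusted p up to 0.0852 otherwise).

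Spindle and chromosome genes moved in both directions. Tacc3, which stabilizes spindle microtubules, had 42.5, 54.6 and 44.6 FPKM in the interphase samples and 1.86, 2.45 and 1.87 FPKM in the M-phase samples (log2 fold change -4.52, SE 0.73, adjusted p = 9.95e-05), and its groups did not overlap. Kif22, a chromosome-bound kinesin, had 17.7, 23.2 and 21.0 FPKM in the interphase samples and 1.09, 0.374 and 1.63 FPKM in the M-phase samples (log2 fold change -4.56, SE 1.35, adjusted p = 0.0413). Tubb4b, a beta-tubulin, had 535, 569.5 and 611 FPKM in the interphase samples and 78.1, 65.0 and 38.2 FPKM in the M-phase samples (log2 fold change -3.30, SE 0.74, adjusted p = 0.00491), though 64.6% of its transcript's 31-base words also occur in other genes. Tubg1, the gamma-tubulin that seeds microtubules, was higher with 72.8, 69.7 and 69.2 FPKM against 19.12, 17.1 and 19.096 FPKM (log2 fold change 1.94, SE 0.47, adjusted p = 0.00891). Of 16 tested tubulin genes these 2 were called, and the list's median was -1.02 (-1.27 to -0.49 over the alternatives). Cenpa, the histone that marks centromeres, had 2.49, 2.68 and 2.61 FPKM in the interphase samples and 10.8, 6.96 and 9.52 FPKM in the M-phase samples (log2 fold change 1.79, SE 0.54, adjusted p = 0.0489). Cenpv, a centromere protein, had 0.295 ± 0.0700 FPKM in interphase and 5.98 ± 2.31 FPKM in M-phase (SD, n = 3) and rose (log2 fold change 4.29, SE 1.13, adjusted p = 0.0178). Ncaph, a condensin subunit, had 0.869 ± 0.133 FPKM in interphase and 0.0260 ± 0.0174 FPKM in M-phase and fell (log2 fold change -5.30, SE 1.38, adjusted p = 0.0171). The centromere, kinetochore and condensin list had a median of -1.03 (-1.27 to -0.35 over the alternatives) over 33 genes, and no other member was called. The histone variant gene H2afz, which encodes H2A.Z, went from 7.21, 4.01 and 5.05 to 17.2, 29.3 and 15.7 FPKM (log2 fold change 1.92, SE 0.54, adjusted p = 0.0275), and 34.5% of its 31-base words occur in other genes. H3f3a, an H3.3 gene, went from 12.5, 13.4 and 14.7 to 4.68, 1.03 and 4.33 FPKM (log2 fold change -2.29, SE 0.54, adjusted p = 0.00683). Hist1h2ac was the only called gene of 33 replication-dependent core histone genes, which carry no poly(A) tail in cycling cells, and it fell (log2 fold change -6.19, SE 1.45, adjusted p = 0.00668). The calls of Cenpa and Kif22 were lost without any one of the 6 samples (adjusted p up to 0.162 and 0.202). The call of Cenpv was lost without zygote B or C or zygote M A or B, that of Ncaph without zygote B or C or zygote M B, and that of H2afz without zygote C or D or zygote M A or B (adjusted p up to 0.0850, 0.103 and 0.163). That of H3f3a was lost without zygote M B and that of Hist1h2ac without zygote M B or C (adjusted p up to 0.109 and 0.0563).

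Large rises outside the cell cycle genes were in genes of varied function. They were taken among protein-coding genes called in both fits, with groups that did not overlap, a group mean of at least 10 FPKM and no group at the lowest value. The 12 of these that rose most were Cdc20, Cks2, Gm8186, Rps27l, Romo1, Polr2c, Vps72, Gch1, Lars2, Fpgs, Gm4950 and Tcl1b2. A gene below 10 FPKM could rise as much, such as Snrpg (log2 fold change 4.46, SE 0.53, adjusted p = 1.07e-06). Rps27l, a p53 target related to a ribosomal protein, had 1.89, 1.56 and 3.43 FPKM in the interphase samples and 84.4, 96.9 and 58.9 FPKM in the M-phase samples (log2 fold change 5.18, SE 0.39, adjusted p = 3.19e-10). Romo1, a small mitochondrial inner membrane protein, had 4.09, 1.98 and 4.50 FPKM in the interphase samples and 98.9, 195 and 63.1 FPKM in the M-phase samples (log2 fold change 5.01, SE 0.48, adjusted p = 2.23e-08). Polr2c, a core subunit of RNA polymerase II, had 1.87, 1.63 and 1.69 FPKM in the interphase samples and 50.9, 68.5 and 48.9 FPKM in the M-phase samples (log2 fold change 5.00, SE 0.40, adjusted p = 1.15e-09). Each of these 3 lay below 5 FPKM in interphase and above 45 FPKM in M-phase in every sample. Vps72, a subunit of chromatin remodelers that deposit H2A.Z, had 3.04, 3.13 and 4.08 FPKM in the interphase samples and 97.2, 88.8 and 96.2 FPKM in the M-phase samples (log2 fold change 4.80, SE 0.62, adjusted p = 4.05e-06). Gch1, the first enzyme of tetrahydrobiopterin synthesis, had 0.707, 0.680 and 0.798 FPKM in the interphase samples and 19.3, 20.1 and 15.0 FPKM in the M-phase samples (log2 fold change 4.63, SE 0.46, adjusted p = 4.16e-08). Fpgs, which adds glutamates to folates, had 2.78, 2.00 and 2.38 FPKM in the interphase samples and 50.4, 69.6 and 51.5 FPKM in the M-phase samples (log2 fold change 4.58, SE 0.96, adjusted p = 0.00227). In all 3 the M-phase samples lay close together. Lars2, the mitochondrial leucyl-tRNA synthetase, had 1.12, 0.902 and 1.11 FPKM in the interphase samples and 24.3, 45.6 and 15.2 FPKM in the M-phase samples (log2 fold change 4.63, SE 0.56, adjusted p = 1.43e-06); it is also one of the features listed above as overlapping ribosomal RNA-like sequence. The gene models Gm8186 and Gm4950 have no established name, and the transcript of Snrpg shares 19.6% of its 31-base words with Gm8186. Gm8186 had 21.3, 9.85 and 24.6 FPKM in the interphase samples and 639, 861 and 449 FPKM in the M-phase samples (log2 fold change 5.18, SE 0.38, adjusted p = 2.04e-10). Gm4950 had 1.27, 0.9996 and 1.27 FPKM in the interphase samples and 25.02, 27.6 and 20.4 FPKM in the M-phase samples (log2 fold change 4.36, SE 0.57, adjusted p = 4.21e-06). Rps27l shares 29.6% of its 31-base words with other genes. All 12 calls were kept without any one of the 6 samples.

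**Figure D2:**
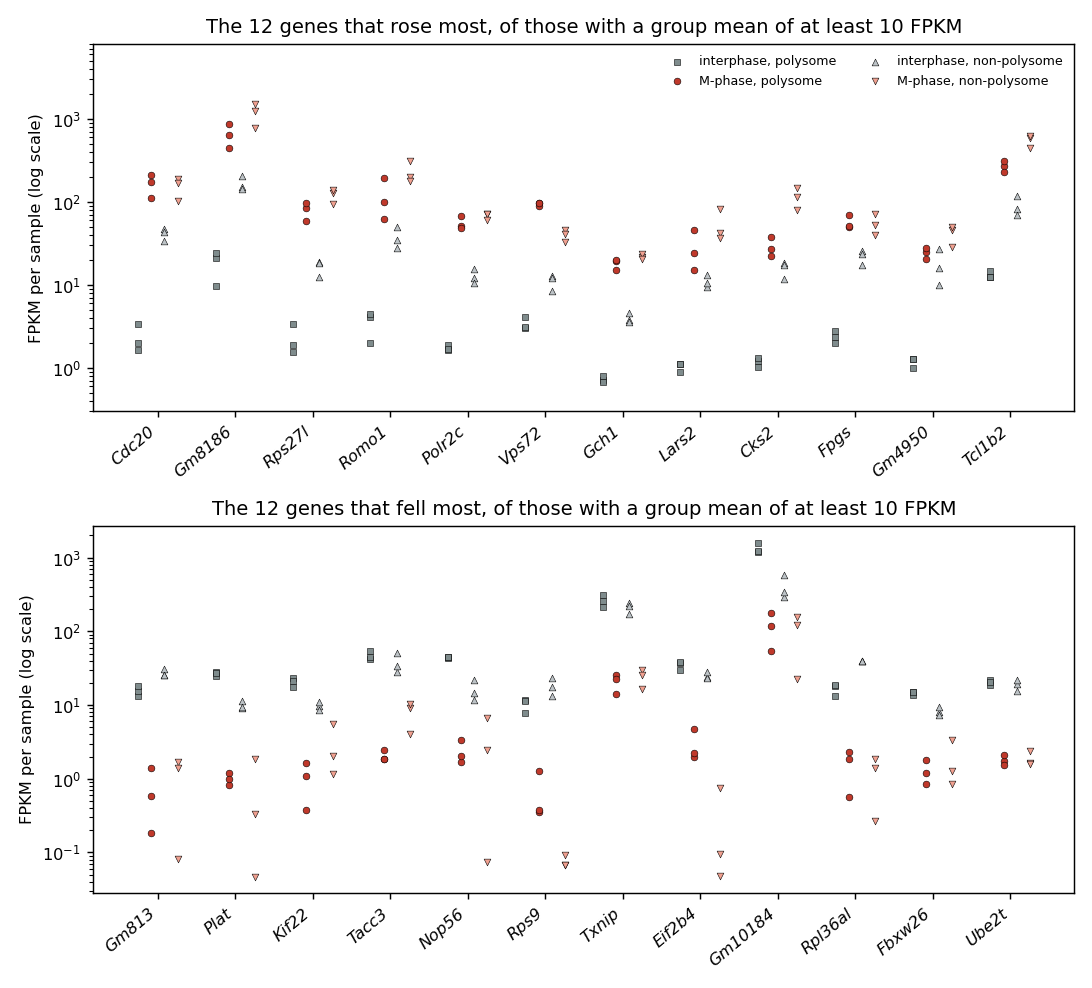
FPKM of every zygote sample (log y axis) for the 12 genes that rose most (upper panel, Cdc20 first) and the 12 that fell most (lower panel) among those with a group mean of at least 10 FPKM and the other limits named above, in polysome RNA (squares, interphase; circles, M-phase) and NP RNA (upward triangles, interphase; downward triangles, M-phase), 3 samples each. The polysome groups of each gene do not overlap, and in interphase the polysome values of the rising genes lie below their NP values.

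The 12 genes that fell most under the same limits were of varied function, and Hspa5, Hist1h2ac, Mcm3 and Ncaph, which lie outside those limits, fell further than any of them. Txnip, the inhibitor of thioredoxin, had 311, 217 and 260.2 FPKM in the interphase samples and 14.2, 25.2 and 22.6 FPKM in the M-phase samples (log2 fold change -3.70, SE 0.99, adjusted p = 0.0203). Plat, tissue plasminogen activator, a stored maternal mRNA of the oocyte, had 25.1, 28.0 and 27.5 FPKM in the interphase samples and 1.20, 0.818 and 0.987 FPKM in the M-phase samples (log2 fold change -4.76, SE 1.34, adjusted p = 0.0288). Nop56, a core protein of box C/D snoRNPs, had 43.2, 45.0 and 45.3 FPKM in the interphase samples and 1.70, 3.31 and 2.02 FPKM in the M-phase samples (log2 fold change -4.31, SE 1.21, adjusted p = 0.0288). Each lay at least 8-fold apart between any pair of opposite samples. Eif2b4, a subunit of the exchange factor for eIF2, had 30.1, 37.1 and 38.7 FPKM in the interphase samples and 2.00, 2.22 and 4.68 FPKM in the M-phase samples (log2 fold change -3.68, SE 1.06, adjusted p = 0.0349). Rpl36al, a ribosomal protein gene, had 13.1, 18.1 and 18.7 FPKM in the interphase samples and 2.28, 1.86 and 0.573 FPKM in the M-phase samples (log2 fold change -3.61, SE 0.62, adjusted p = 0.000248). Ube2t, a ubiquitin-conjugating enzyme of the Fanconi anemia pathway, had 18.5, 22.0 and 20.4 FPKM in the interphase samples and 1.72, 1.52 and 2.12 FPKM in the M-phase samples (log2 fold change -3.52, SE 0.95, adjusted p = 0.0211). Fbxw26, an F-box gene, had 14.9, 13.6 and 15.0 FPKM in the interphase samples and 1.21, 0.858 and 1.80 FPKM in the M-phase samples (log2 fold change -3.56, SE 0.97, adjusted p = 0.0231), and the unnamed gene Gm813 went from 13.4, 15.5 and 18.2 to 0.182, 0.586 and 1.40 FPKM (log2 fold change -4.87, SE 1.37, adjusted p = 0.0291). Gm10184 was the most abundant of the 12, with 1199, 1603 and 1222 FPKM in the interphase samples and 119.8, 53.6 and 177 FPKM in the M-phase samples (log2 fold change -3.67, SE 0.55, adjusted p = 4.18e-05). Its transcript shares 95.8% of its 31-base words with Kpna2, an importin alpha gene, which had 13.7 ± 11.4 FPKM in interphase and 2.08 ± 1.07 FPKM in M-phase (SD, n = 3) and was not called (adjusted p = 0.200), so many reads of this pair cannot be told apart. Of the 31-base words of Nop56, 38.2% occur in other genes, and of those of Rpl36al and Fbxw26 26% and 25.9%. Tacc3, Kif22 and Rps9 make up the rest of the 12. The calls of Tacc3, Rps9, Gm10184 and Rpl36al were kept without any one sample. Those of Plat, Nop56 and Txnip were lost without each of the 6 (adjusted p up to 0.104, 0.104 and 0.0887), and those of Gm813, Eif2b4, Fbxw26 and Ube2t held only without zygote M replicate C (adjusted p up to 0.161, 0.126, 0.108 and 0.0827). With the 6 samples alone all 12 were called, with adjusted p of at most 0.00386.

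Cytosolic ribosomal protein genes fell more often than they rose. Of 77 tested cytosolic ribosomal protein genes, 17 fell and 3 rose with all samples, against 2.51% and 3.24% of all genes tested. In the 6-sample fit 26 were lower and 7 higher (33.8% and 9.09%, against 21.7% and 11.4% of all genes tested). The list's median log2 fold change was -0.78 (-1.04 to 0.01 over the alternatives) against -0.43 over all genes tested. Rps9 had 7.76, 11.7 and 11.2 FPKM in the interphase samples and 0.352, 1.26 and 0.372 FPKM in the M-phase samples (log2 fold change -4.19, SE 0.53, adjusted p = 2.86e-06). Rplp2, a protein of the ribosomal stalk, rose from 0.575, 0.360 and 0.908 to 8.67, 13.4 and 5.73 FPKM (log2 fold change 3.93, SE 0.48, adjusted p = 1.60e-06). Rps3a1 had 1.62, 1.26 and 2.08 FPKM in interphase and is listed at 0.01 FPKM, the lowest value in the file, in all M-phase samples. Rpl6 went from 1.12, 1.75 and 2.15 to 0.0537, 0.0519 and 0.0519 FPKM and Rpl4 from 6.39, 8.39 and 8.83 to 0.866, 0.206 and 0.491 FPKM, both falls. Many of these genes have processed pseudogenes: 84.9% of the 31-base words of Rps6 and 35.1% of those of Rps9 occur in other genes, so their values are uncertain. The share was 38.1% for Rplp2, 32.2% for Rpl4, 76.9% for Rps3a1, 66.9% for Rpl6 and 43.5% for Rpl35. Relative to the median of all genes, the list's median was -0.36 as deposited and 0.00 after quantile normalization, where the list's direction was lost. Rpl35 had 1.87, 2.58 and 3.22 FPKM in the interphase samples and 0.462, 1.19 and 0.640 FPKM in the M-phase samples, with no overlap, and was not called with all samples (adjusted p = 0.0849).

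Ribosome assembly genes were mostly below interphase, as were 62.2% of all genes tested, and most were not called with all samples. Of 71 tested, 12 fell and 3 rose with all samples, against 2.51% and 3.24% of all genes tested. In the 6-sample fit 40 fell and 3 rose (56.3% and 4.23%, against 21.7% and 11.4% of all genes tested). The median was -1.87 (-2.13 to -0.47 over the alternatives). Among the falls, Nop53, Rrp1b and Ddx24 were called in every fit with 1 sample left out. The calls of Nop56, Imp4 and Bud23 were lost in each, and those of Nolc1, Wdr12 and Ltv1 held in 1 of 6. Nol12 and Bms1 held in 4 and Dcaf13 in 5. The list's summed FPKM was nonetheless higher in zygote M, 1101 to 1324 against 701 to 734, a gain smaller than that of Trmt112 alone. Besides Nop56, the DEAD-box helicase gene Ddx24 went from 8.31, 7.45 and 6.75 to 0.637, 0.677 and 0.201 FPKM (log2 fold change -4.08, SE 0.84, adjusted p = 0.00196). Imp4, a protein of the small-subunit processome, went from 62.3, 61.0 and 59.3 to 21.4, 29.9 and 25.4 FPKM (log2 fold change -1.27, SE 0.36, adjusted p = 0.0334). Of the genes that rose, Nip7, a factor of large-subunit assembly, had 1.97, 1.38 and 1.49 FPKM in the interphase samples and 15.2, 14.3 and 12.8 FPKM in the M-phase samples (log2 fold change 3.14, SE 0.44, adjusted p = 1.47e-05). Trmt112, a partner of several methyltransferases, had 146, 113 and 139 FPKM in the interphase samples and 874, 999 and 783 FPKM in the M-phase samples (log2 fold change 2.74, SE 0.37, adjusted p = 8.39e-06), and shares 36.4% of its 31-base words with other genes. Nop10, of the H/ACA snoRNPs, had 20.2 ± 3.61 FPKM in interphase and 50.9 ± 5.66 FPKM in M-phase (SD, n = 3; log2 fold change 1.34, SE 0.37, adjusted p = 0.0276). The call of Imp4 was lost without any one of the 6 samples and that of Nop10 without any but zygote D (adjusted p up to 0.145 and 0.134). Among 43 initiation factor genes, Eif1 (log2 fold change 1.14, SE 0.24, adjusted p = 0.00289) and Eif3i (log2 fold change 3.23, SE 0.52, adjusted p = 9.98e-05) rose and Eif2b4 fell, and the call of Eif1 was lost without zygote M A, where its log2 fold change of 0.96 fell short of 2-fold. In the 6-sample fit 4 initiation factor genes were higher and 12 lower (9.30% and 27.9%, against 11.4% and 21.7% of all genes tested). The initiation factor list's median was -0.81 (-1.06 to -0.30 over the alternatives). Eif1 shares 37.1% of its 31-base words with other genes. Eif3i, an eIF3 subunit, had 6.46, 5.93 and 6.92 FPKM in the interphase samples and 56.9, 67.9 and 56.7 FPKM in the M-phase samples. In the list named for elongation and release factors, which also counts Tpt1, 16 genes were tested. Eif5a and Tpt1 (42.9% of whose 31-base words occur in other genes) rose, and no member fell with all samples. In the 6-sample fit 2 were higher and 5 lower (12.5% and 31.25%, against 11.4% and 21.7% of all genes tested). The list's median was -0.79 (-1.04 to -0.56 over the alternatives). Eif5a, which eases peptide bond formation at difficult sequences, had 33.8, 23.8 and 36.4 FPKM in the interphase samples and 149.8, 136 and 78.0 FPKM in the M-phase samples (log2 fold change 1.92, SE 0.34, adjusted p = 0.000292). Eef2, the elongation factor that moves the ribosome along, had 33.8, 38.1 and 35.1 FPKM in the interphase samples and 24.2, 22.2 and 23.2 FPKM in the M-phase samples and was not called (adjusted p = 0.780). One mitochondrial ribosomal protein gene of 73, Mrps31, was called, as a fall (log2 fold change -2.67, SE 0.71, adjusted p = 0.0203), and was lost without zygote C or D or zygote M A (adjusted p up to 0.109). Of 24 genes of mTOR and S6 kinase control, Lamtor2, a subunit of the lysosomal Ragulator complex, was the one called, with 2.53, 2.03 and 2.89 FPKM in the interphase samples and 25.7, 32.2 and 23.9 FPKM in the M-phase samples (log2 fold change 3.46, SE 0.74, adjusted p = 0.00301).

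Splicing and RNA polymerase genes were called in both directions. In a list of 55 splicing genes, 7 rose and 3 fell, with a median of -1.31 (-1.56 to -0.32 over the alternatives). In the 6-sample fit 10 were higher and 22 lower (18.2% and 40%, against 11.4% and 21.7% of all genes tested). Magoh, of the exon junction complex, had 0.561, 0.742 and 0.671 FPKM in the interphase samples and 16.6, 8.53 and 14.8 FPKM in the M-phase samples (log2 fold change 4.29, SE 0.54, adjusted p = 2.86e-06). Sm proteins form the ring of the spliceosomal snRNPs, and Snrpe, Snrpf and Snrpg rose. Snrpe had 1.42 ± 0.235 FPKM in interphase and 14.7 ± 1.90 FPKM in M-phase (SD, n = 3), Snrpf 0.920 ± 0.258 FPKM in interphase and 9.06 ± 2.10 FPKM in M-phase, and Snrpg 0.242 ± 0.0737 FPKM in interphase and 5.31 ± 1.67 FPKM in M-phase. Of the 31-base words of Snrpe, 41.2% occur in other genes, and of those of Polr2c 44.1%. Srsf2, a serine- and arginine-rich splicing factor, went from 103, 105 and 112 to 30.1, 42.1 and 36.6 FPKM (log2 fold change -1.57, SE 0.38, adjusted p = 0.0103); its call was lost without zygote M replicate A (adjusted p = 0.0616). Of 24 polymerase genes, Polr2c, Polr2f, Polr2h and Polr2j rose and Polr2b, Polr2d and Polr3a fell. In the 6-sample fit 4 of these 24 were higher and 8 lower (16.7% and 33.3%, against 11.4% and 21.7% of all genes tested). The polymerase list's median was -0.53 (-0.78 to -0.35 over the alternatives). Polr2j had 7.73, 5.33 and 10.8 FPKM in the interphase samples and 41.0, 64.3 and 40.6 FPKM in the M-phase samples (log2 fold change 2.64, SE 0.42, adjusted p = 9.95e-05) and Polr2d went from 29.0, 31.9 and 32.9 to 5.49, 7.26 and 4.95 FPKM (log2 fold change -2.42, SE 0.57, adjusted p = 0.00683). Polr2b, the second-largest subunit, had 0.704 ± 0.194 FPKM in interphase and 0.0120 ± 0.00252 FPKM in M-phase (SD, n = 3), a fall lost without any one sample, and the call of Polr3a held only without zygote M C (adjusted p up to 0.120 and 0.124). Polr2i had 6.10, 4.75 and 8.56 FPKM in the interphase samples and 10.8, 11.9 and 9.87 FPKM in the M-phase samples and was not called (adjusted p = 0.568).

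Proteasome and chaperone lists had medians below that of all genes. Of 41 proteasome genes 4 fell and 2 rose, with a median of -1.39 (-1.65 to -0.88 over the alternatives). In the 6-sample fit 23 were lower and 6 higher (56.1% and 14.6%, against 21.7% and 11.4% of all genes tested). The fall of Psmb7 was called in every fit with 1 sample left out. That of Psmd6 held in 2 of 6 such fits, and those of Psmc2 and Psmd7 in 1 (adjusted p up to 0.176, 0.284 and 0.158). Psmb3 had 2.69, 1.56 and 2.49 FPKM in the interphase samples and 30.5, 39.9 and 27.4 FPKM in the M-phase samples and Psmb6 8.10, 7.48 and 9.41 FPKM in the interphase samples and 77.9, 75.2 and 50.9 FPKM in the M-phase samples, and both core subunits rose. Of the 31-base words of Psmb3, 66.8% occur in other genes, 51.8% in one of them, so its value is uncertain. Psmb7, another core subunit, fell from 1.01, 1.499 and 1.25 to 0.0715, 0.107 and 0.114 FPKM (log2 fold change -3.69, SE 0.73, adjusted p = 0.00122). In the list of elongins and cullin ligase components, with 16 genes tested and a median of 0.44 (-0.08 to 1.31 over the alternatives), 3 rose and 3 fell. Rbx1, the RING protein of cullin ligases, had 11.3, 8.23 and 10.0 FPKM in the interphase samples and 44.4, 48.4 and 35.9 FPKM in the M-phase samples (log2 fold change 2.13, SE 0.39, adjusted p = 0.000457). Cdc34b, a ubiquitin-conjugating enzyme gene, had 66.6, 68.8 and 63.8 FPKM in the interphase samples and 686, 1875 and 602 FPKM in the M-phase samples (log2 fold change 3.79, SE 0.93, adjusted p = 0.0103), and its call was lost without zygote M replicate B (adjusted p = 0.0826). Cdc34 holds 30.8% of its 31-base words. Elobl, an elongin B-like gene, had 1634, 1952 and 2192 FPKM in the interphase samples and 473, 459.8 and 530.1 FPKM in the M-phase samples (log2 fold change -1.97, SE 0.32, adjusted p = 9.95e-05), and Skp1a had 59.8, 72.9 and 75.3 FPKM in the interphase samples and 15.2, 9.77 and 14.9 FPKM in the M-phase samples (log2 fold change -2.40, SE 0.37, adjusted p = 6.69e-05). Elob itself, 52.3% of whose 31-base words occur in other genes, had 0.285, 0.312 and 0.256 FPKM in the interphase samples and 0.248, 0.987 and 0.260 FPKM in the M-phase samples and was not called (adjusted p = 0.873). That list's median was 0.18 without zygote M replicate A, 0.90 without C, and turned to -0.08 without B. The heat shock and endoplasmic reticulum chaperone list had a median of -2.49 (-2.73 to -0.47 over the alternatives) over 31 genes. With all samples 3 were called lower, Hspa5, Hspa8 and P4hb, and none higher, against 2.51% and 3.24% of all genes tested. In the 6-sample fit 4 of the chaperone genes were higher and 12 lower (12.9% and 38.7%, against 11.4% and 21.7% of all genes tested). Hspa5, the chaperone BiP, had 4.82, 3.68 and 4.95 FPKM in the interphase samples and 0.0185, 0.0440 and 0.0390 FPKM in the M-phase samples (log2 fold change -7.13, SE 1.66, adjusted p = 0.00628). Hspa8 shares 77.2% of its 31-base words with other genes. The call of Hspa8 was lost without zygote M C and that of P4hb without zygote C or zygote M B (adjusted p up to 0.0512 and 0.188). The CCT chaperonin and prefoldin list had a median of -2.49 (-2.74 to -0.37 over the alternatives, weakest with 1 FPKM added), and Cct3 was its one called gene of 13 (log2 fold change -3.82, SE 1.15, adjusted p = 0.0443). Of 26 replication licensing genes, Mcm3 (log2 fold change -5.78, SE 1.41, adjusted p = 0.010004) and Cdc6 (log2 fold change -4.22, SE 1.13, adjusted p = 0.0205) fell. Without zygote M C the call of Mcm3 was lost and without any one sample that of Cdc6, while that of Cct3 held only without zygote M C (adjusted p up to 0.0862, 0.0826 and 0.242). The list of stress response and p53 targets does not hold Rps27l, the p53 target that rose above. In that list, 1 of 22 tested genes rose and 1 fell, with a median of -0.33 (-0.68 to 0.16 over the alternatives). That median was above 0 with a filter of at least 1 FPKM and with a replicate block over all samples, and was -0.65 and -0.56 without zygote M A or C. Siva1, a proapoptotic gene, had 13.5, 8.11 and 11.3 FPKM in the interphase samples and 156, 254 and 129 FPKM in the M-phase samples and rose (log2 fold change 4.01, SE 0.37, adjusted p = 1.74e-08), and 27.0% of its 31-base words occur in other genes. Tigar, a p53 target that lowers glycolysis, had 2.31, 3.11 and 2.60 FPKM in the interphase samples and 0.648, 0.297 and 0.762 FPKM in the M-phase samples and fell (log2 fold change -2.33, SE 0.70, adjusted p = 0.0442), a call lost without any one of the 6 samples (adjusted p up to 0.244). Of 77 oxidative phosphorylation genes 6 were higher and 3 lower, against 3.24% and 2.51% of all genes tested. In the 6-sample fit 7 were higher and 30 lower (9.09% and 39.0%, against 11.4% and 21.7% of all genes tested). The list's median was -0.85 (-1.10 to -0.28 over the alternatives). The falls of Ndufa2 and Atp5h were lost without any one sample (adjusted p up to 0.191 and 0.111). The rise of Cox7a2 held in 1 of 6 such fits and that of Ndufb6 in 4 (adjusted p up to 0.153 and 0.103). Cox8a, a subunit of cytochrome c oxidase, had 38.8, 26.8 and 43.1 FPKM in the interphase samples and 576, 874 and 458 FPKM in the M-phase samples, and Cox4i1, another, had 16.5, 23.5 and 21.2 FPKM in the interphase samples and 2.44, 2.82 and 1.66 FPKM in the M-phase samples.

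**Figure D3:**
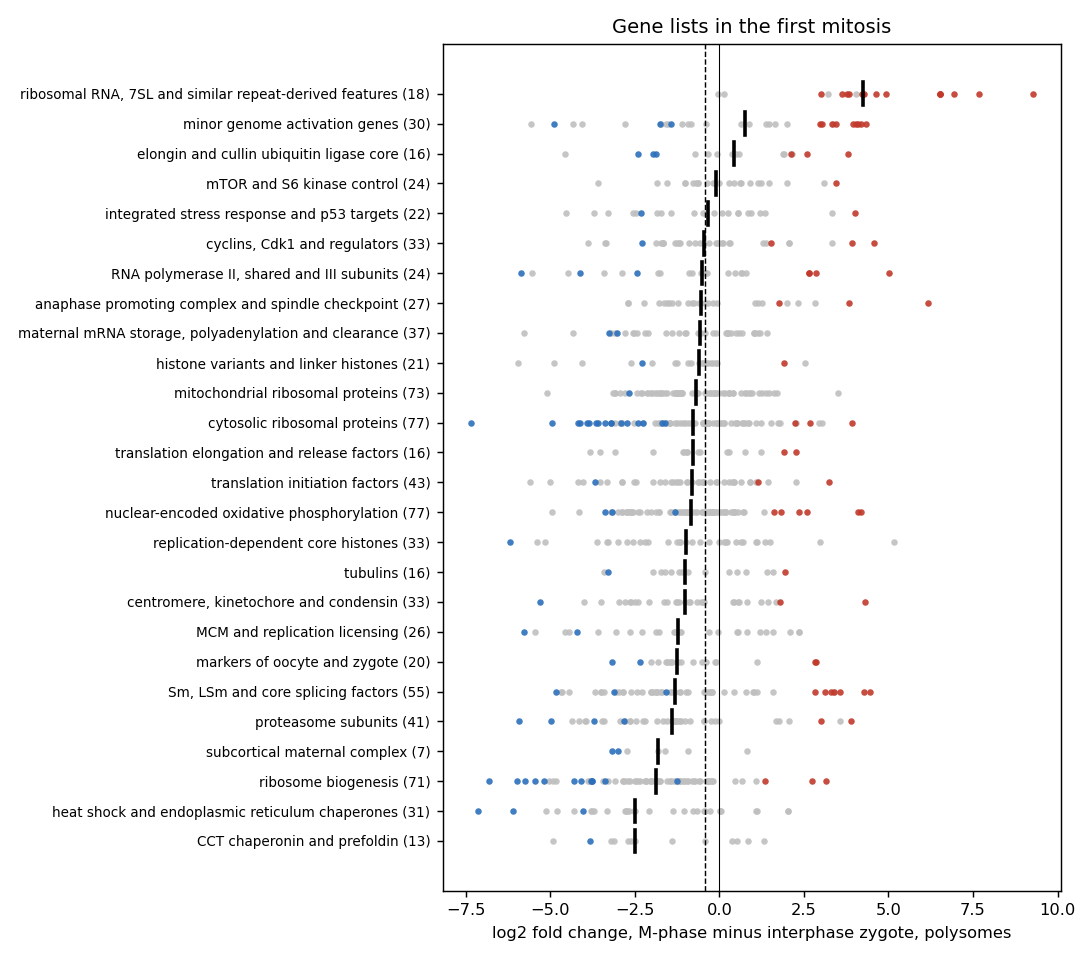
log2 fold change in polysomes (x axis) of each tested gene in each list (number tested in parentheses); red and blue points are genes called higher and lower, grey points genes not called, thick bars the list medians and the dashed line the median of all genes tested (-0.43). Ribosome biogenesis has 12 blue points, and the lists with a median above 0 are the repeat-derived features, minor genome activation and elongins with cullin ligases, of which the latter turn below 0 without zygote M replicate B and minor genome activation with a replicate block on the 6 samples.

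Families of oocyte genes that are also transcribed in minor genome activation, the first low transcription of the embryo, included many that rose. Of 30 tested, 9 rose and 3 fell, with a median of 0.76 (-0.52 to 1.32 over the alternatives). The median turned below 0 with a replicate block on the 6 samples, and was 0.41 without zygote D and 0.24, 1.32 and 0.39 without zygote M A, B or C. Those that rose were Tcl1, Tcl1b1, Tcl1b2, Tcl1b4 and Tcl1b5 of one family, Omt2a and Omt2b, and the homeobox genes Obox1 and Obox5, which oocytes express as well. Tcl1, a coactivator of the kinase Akt, had 279, 226 and 248 FPKM in the interphase samples and 2701, 2245 and 2656 FPKM in the M-phase samples (log2 fold change 3.34, SE 0.56, adjusted p = 0.000199). Tcl1b2 had 14.8, 12.6 and 12.3 FPKM in the interphase samples and 268, 308 and 228 FPKM in the M-phase samples (log2 fold change 4.33, SE 0.78, adjusted p = 0.000389). Omt2b had 63.6, 56.6 and 61.4 FPKM in the interphase samples and 1128, 1374 and 719 FPKM in the M-phase samples (log2 fold change 4.10, SE 0.39, adjusted p = 1.95e-08), and 58.2% of its 31-base words also occur in Omt2a, so the reads of this pair are hard to part. Obox5 had 6.05, 5.31 and 5.05 FPKM in the interphase samples and 122, 47.4 and 105 FPKM in the M-phase samples (log2 fold change 3.96, SE 1.01, adjusted p = 0.0147). The call of Tcl1b5 was lost without any one sample, that of Tcl1b4 without zygote C or zygote M A or B, that of Obox5 without zygote C or D or zygote M A or C, and that of Obox1 without zygote M A or C (adjusted p up to 0.149, 0.0753, 0.0717 and 0.0697). Of the 31-base words of Tcl1b2, 42.7% occur in other genes, and of those of Obox1 74.2%. The share was 38.3% for Tcl1b5, 30% for Tcl1b1 and 33.9% for Obox5. Dppa5a, Dppa4 and Sp110, with 57.2%, 44.3% and 57.6% of such words, fell, Dppa5a from 67.6, 71.1 and 69.5 to 26.7, 37.6 and 16.9 FPKM (log2 fold change -1.43, SE 0.42, adjusted p = 0.0372). The call of Dppa5a held only without zygote M B, and those of Dppa4 and Sp110 only without zygote M C (adjusted p up to 0.206, 0.219 and 0.171). Bcl2l10, a Bcl-2 family gene of the oocyte, was among the most abundant mRNAs that rose, with 379.6, 393 and 433 FPKM in the interphase samples and 3181, 2499 and 2905 FPKM in the M-phase samples (log2 fold change 2.83, SE 0.58, adjusted p = 0.00179). Among 20 oocyte markers 2 rose and 2 fell.

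The subcortical maternal complex, a protein assembly under the egg membrane needed for cleavage, had members that fell and none that rose. Ooep, one of its members, had 669, 847 and 969 FPKM in the interphase samples and 113, 95.5 and 101 FPKM in the M-phase samples (log2 fold change -2.99, SE 0.42, adjusted p = 1.27e-05). Padi6, another, had 203, 150.4 and 174 FPKM in the interphase samples and 16.9, 25.04 and 17.3 FPKM in the M-phase samples (log2 fold change -3.17, SE 0.85, adjusted p = 0.0205). These 2 of 7 tested members fell, and the median was -1.82 (-2.11 to -1.53 over the alternatives). Tle6 had 190.0, 157 and 169.5 FPKM in the interphase samples and 22.2, 34.5 and 22.7 FPKM in the M-phase samples and was called with the 6 samples (adjusted p = 0.000460) but not with all (adjusted p = 0.120). The call of Padi6 held only without zygote M replicate B (adjusted p up to 0.0818 otherwise). Of 37 genes of maternal mRNA storage, polyadenylation and clearance, Pabpn1l and Stau1 fell and none rose. Pabpn1l, a poly(A)-binding protein of the oocyte, had 209.8, 255 and 229 FPKM in the interphase samples and 20.8, 29.2 and 23.3 FPKM in the M-phase samples (log2 fold change -3.25, SE 0.89, adjusted p = 0.0243). Cpeb1, which binds the CPE, had 2.10, 1.95 and 1.71 FPKM in the interphase samples and 0.156, 0.184 and 0.394 FPKM in the M-phase samples and was not called with all samples (adjusted p = 0.124). Btg4, a recruiter of the deadenylase complex, had 13.5, 13.1 and 13.2 FPKM in the interphase samples and 24.0, 13.5 and 29.9 FPKM in the M-phase samples, with an adjusted p of 0.673. Mos, the kinase that holds the egg in metaphase, had 70.6, 87.9 and 87.0 FPKM in the interphase samples and 13.2, 7.74 and 15.6 FPKM in the M-phase samples, with groups that did not overlap; its adjusted p was 0.350 with all samples and 0.00105 with the 6. The calls of Pabpn1l and Stau1 were lost without any one of the 6 samples (adjusted p up to 0.0939 and 0.185).

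Whether a change belonged to the polysomes or to the RNA of the whole embryo was asked by testing the polysome change against the NP change of the same gradients. The changes differed for 23 genes (0.289% of those tested), and all 23 had the higher log2 change in polysomes. That test takes the fractions as independent samples. Pools of 1 stage with the same letter were taken as 1 gradient from the labels, and their deviations from the group means correlated at r = -0.00625 to 0.167. With the difference of the same-lettered pools as 1 value per gradient, limma called 2 genes over 18 pairs, Cdc20 (adjusted p = 0.0229) and Gm14706 (adjusted p = 0.0229). It called 0 over the 6 zygote pairs, where 1485 had an unadjusted p under 0.05 and Cdc20 an adjusted p of 0.0584. The calls below other than Cdc20 are therefore of the unpaired test alone, and in the 18 pairs Pttg1 had an adjusted p of 0.123. Cdc20 was the clearest, with a change of 6.16 in polysomes and 1.86 in NP RNA, a difference of 4.30 (SE 0.51, adjusted p = 2.85e-05). Pttg1 followed among the cell cycle genes, with 3.83 and 1.13 (difference adjusted p = 0.0147). Siva1, Polr2c, Commd2 and Gm8186 also rose more in polysomes, with differences of 2.41, 2.58, 2.39 and 2.41 (adjusted p = 0.0403, 0.0410, 0.0410 and 0.0434). A second kind fell in NP RNA further than in polysomes. Rps9 changed by -4.19 in polysomes and -7.88 in NP RNA, and Rps25 by -3.86 and -8.48 (difference adjusted p = 0.0227 and 0.0133). Gpank1, Tomm6 and Rps20 also fell further in NP RNA, with no call in polysomes. Without zygote B or C the count was 9, and without zygote M replicate A or B it was 10 and 8.

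For the other genes a difference between the fractions was not detected, which does not show that their changes were alike. In NP RNA 84 genes were higher and 746 lower in zygote M (1.05% and 9.36%). Of the genes that rose in polysomes, 73 were among those 84, and of the genes that fell in polysomes, 137 were among those 746. The 258 risers had a median log2 change of 3.26 in polysomes and 1.30 in NP RNA, and the 200 fallers -3.78 and -3.63; over all genes tested the medians were -0.43 and -0.87. Ooep fell in NP RNA too, from 1404, 1575 and 1582 to 121, 121 and 104 FPKM. Cks2 rose there from 18.5, 17.6 and 11.96 to 147, 114 and 81.1 FPKM, and Nip7 from 14.03, 13.6 and 7.62 to 74.9, 41.0 and 43.6 FPKM. The risers had started low on polysomes: in interphase their mean polysome FPKM was 25.4% of their mean NP FPKM in the median, against 79.5% for all genes tested, and in M-phase the values were 97.4% and 96.3%. A low interphase polysome value helps a gene to be called higher, so this is a description of the risers and was not tested. The fallers went from 102% to 73.9%. The repeat-derived features summed to 201 to 472 FPKM in NP zygote and 445 to 1203 in NP zygote M.

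The second mitosis, two-cell M against two-cell polysomes, is the nearest comparison in the series and shares no sample with the first. By the study's methods, two-cell embryos were reached by culture in KSOM medium. Nocodazole is given there for two-cell embryos along with metaphase zygotes. The change of a gene differed between the mitoses for 1889 genes (23.7%), with the higher log2 change in the first mitosis for 1342 and in the second for 547. In the second mitosis 648 genes were higher and 2242 lower (8.13% and 28.1%), and the median over all genes was -1.17. Of the 258 genes that rose in the first mitosis, 59 rose and 73 fell in the second, and the test of the difference passed for 168. Of the 200 that fell in the first, 37 fell and 58 rose in the second, and the difference passed for 133.

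Cdc20 rose in both mitoses, with log2 changes of 6.16 in the first and 1.39 in the second, and the difference passed the test (adjusted p = 8.41e-08). Pttg1 changed in opposite directions, with 3.83 and -2.16 (adjusted p = 2.12e-09). Vps72 and Tcl1b2 also turned, with 4.80 and 4.33 in the first mitosis and -4.78 and -5.88 in the second. Cks2, Rps27l and Gm8186 had changes within 0.05 of 0 in the second mitosis. Nip7, Cenpa and H2afz were higher in both, and the difference between the mitoses did not pass the test for any of them (adjusted p = 0.741, 0.634 and 0.598). Ooep fell in both, with -2.99 and -3.24. Cytosolic ribosomal protein genes parted: 3 of 77 rose in the first mitosis and 53 in the second, the medians were -0.78 and 2.73, and the difference passed for 44 genes. Rps9 and Rpl36al fell in the first and had changes of 1.98 and 3.61 in the second. Ribosome biogenesis genes had medians of -1.87 and 1.75, with a difference for 26 of 71. Minor genome activation genes went the other way, with medians of 0.76 and -2.48 and a difference for 15 of 30. As background, the mouse embryo starts its main transcription at the two-cell stage.

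**Figure D4:**
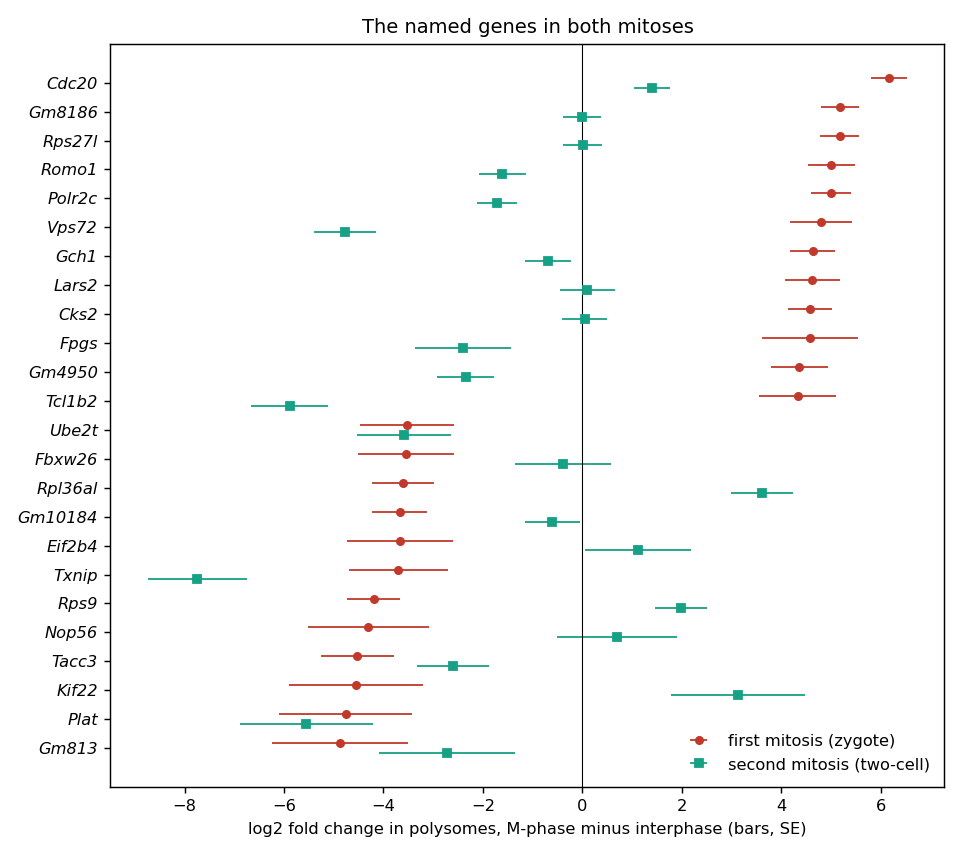
log2 fold change in polysomes, M-phase minus interphase (x axis; bars, SE from limma), of the 12 genes that rose most and the 12 that fell most in the first mitosis among those with a group mean of at least 10 FPKM and the other limits above, chosen for these values (circles), beside the same genes in the second mitosis (squares). Cdc20 is the one riser with a square above 1, and Rps9, Rpl36al, Eif2b4, Nop56 and Kif22 lie left of 0 in the first mitosis and right of it in the second.

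The protein-coding genes that rose had short mRNAs, with a median transcript of 1251 bases and a median coding sequence of 540 bases (151 genes matched to the annotation). Those that fell had 1898 and 1136 bases (156 genes), and those not called 2501 and 1140 bases. In the shortest of 4 equal groups of genes by transcript length, up to 1562 bases, 6.08% rose and 3.68% fell. In the longest group, 0.571% rose and 1.27% fell. Low values and the precision of a gene also vary with its length, and their part was not tested.

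CPE letters were then counted in the last 100 bases of the 3′ UTR, with no test. They were found in 40 of 134 genes that rose (29.9%), in 20 of 126 that fell (15.9%) and in 19.5% of all 5894 tested genes with a 3′ UTR of at least 100 bases. Over 19279 annotated genes the share was 17.9%. Only the transcript strand was searched, and the letters of the CPE and of the hexamer can overlap, as in Psmb3 and Rbx1. The hexamer AATAAA was found in 74.6% of the genes that rose, 53.2% of those that fell and 66.4% of all tested. Within the shortest group, 34.8% of 210 genes with a CPE were higher in the 6-sample fit, against 15.1% of 1077 without. Their median log2 changes were 0.35 and -0.34 in polysomes and -0.42 and -1.22 in NP RNA. In the longest group the shares were 5.50% and 6.66%. A match is a run of letters and no measured site, and genes with a 3′ UTR of that length and no match, such as Polr2c, Vps72 and Trmt112, rose as well.

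**Figure D5:**
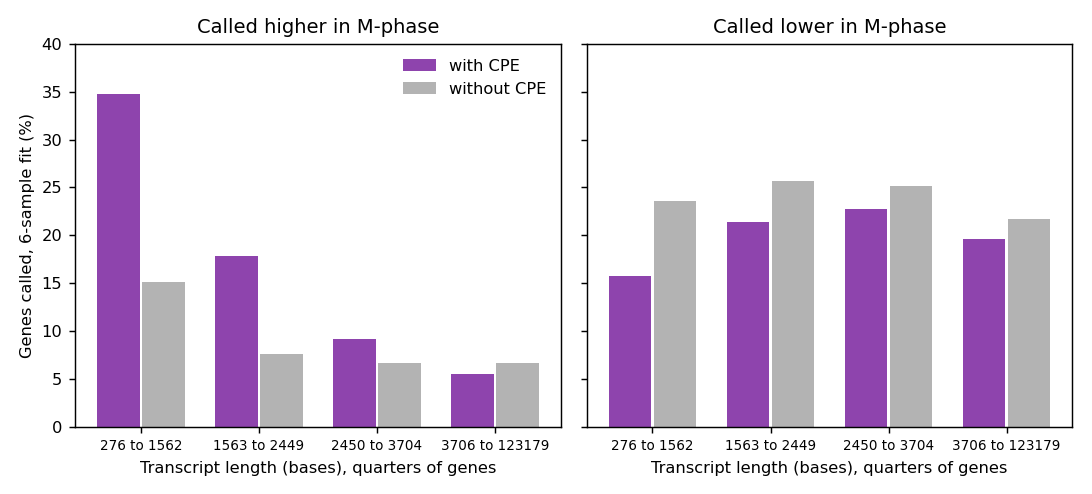
Percent of protein-coding genes called higher (left) and lower (right) in zygote M polysomes with the 6 samples alone (y axis), in 4 equal groups of genes by transcript length in bases (x axis), split by a CPE in the last 100 bases of the 3′ UTR (purple, with; grey, without). In the shortest group 34.8% of genes with a CPE were called higher, the tallest bar on the left.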

How the data were processed

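Polysome and non-polysome RNA of mouse oocytes and early embryos had been amplified with SMART-seq v4, which primes on poly(A) tails, so tail length may enter the values. The authors trimmed reads with Trim Galore 0.4.1, aligned them with STAR 2.5.3a to GRCm38 and quantified them as FPKM. These steps are named in the submitters' processing notes and the study's methods. Partek is also named, in the study's methods for differential expression. They deposited one table of FPKM values for 36 samples, with a lowest value of 0.01 FPKM. A further 2 interphase zygote samples named in the labels had no column and were not analysed here. The low values of a gene did not fall on whole reads often enough to recover counts, so no count test was run.

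Of 23125 genes, 7967 whose geometric mean over the 36 samples reached 0.1 FPKM were tested. The deposited FPKM values were taken to log2 without a pseudocount and fitted in limma 3.58.1 (R 4.3.3). The fit held 12 groups of 3 samples with a mean-variance trend. A gene was called at a Benjamini-Hochberg adjusted p under 0.05 over all genes tested and a fold change over 2. A fit to the 6 samples alone is given beside it. Group n is 3, labelled as biological triplicates. The labels do not say that each came from separate mice, so p-values measure the spread between these samples.

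The names were chosen by rule: 9 genes listed by name (Cdc20, Cenpa, H2afz, Nip7, Ooep, Elob, Mos, Polr2i and Rpl35), all but Elob named in the study, the 12 protein-coding genes with the largest rises and the 12 with the largest falls among those called in both fits, not overlapping, with a group mean of at least 10 FPKM and no group at the lowest value, and up to 4 called members of each gene list in each direction, or a defining member where none was called. Genes named beside these, among them Rps20, Rps25, Cpeb1, Mad2l1, Plk1, Aurka, Ccnb1, Fzr1, Eef2, Tle6, Btg4, Commd2, Gpank1, Tomm6, Kpna2, Rpl4, Rpl6, Rps6 and Bcl2l10, were picked with their values seen. The comparison, its members and all lists were chosen with earlier results of these data known. Transcript lengths, 3′ UTRs and shared 31-base words came from GENCODE vM21 on GRCm38. The scripts were tested on simulated data. Alternatives were another pseudocount, filters, normalizations, group weights, subsets of samples, the replicate block and each sample left out.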

Additional observations from a re-analysis of the deposited data

Results flagged for a closer look

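The change from interphase to M-phase differed between polysome and NP RNA, by the test of the difference itself in limma, for 23 genes, and between the first and the second mitosis for 1889 genes. Among the named genes, the log2 change in polysomes minus that in NP RNA was 4.30 for Cdc20, 2.41 for Gm8186, 2.58 for Polr2c and 3.69 for Rps9. The count of 23 takes the fractions as independent samples. In limma over the 18 gradient pairs, Cdc20 was called (adjusted p = 0.0229). Gm8186, Polr2c and Rps9 were not (adjusted p = 0.276, 0.156 and 0.101), and none was called over the 6 zygote pairs.

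The log2 change of the first mitosis minus that of the second was positive for genes that rose in the first. It was 10.21 for Tcl1b2, 9.58 for Vps72, 6.98 for Fpgs, 6.72 for Polr2c, 6.71 for Gm4950 and 6.61 for Romo1. It was 5.32 for Gch1, 5.20 for Gm8186, 5.17 for Rps27l, 4.77 for Cdc20, 4.54 for Cks2 and 4.52 for Lars2. Txnip, which fell in both mitoses and further in the second, had 4.04. The difference was negative for Kif22 (-7.69), Rpl36al (-7.22), Rps9 (-6.18), Nop56 (-5.01), Eif2b4 (-4.79), Rpl35 (-3.59) and Gm10184 (-3.06). The genes that rose and fell most were chosen on the first mitosis, which favours such differences.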

How the results depend on the processing

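The count of genes called higher in zygote M polysomes was 258, and it became 906 with the 6 samples alone, 922 with group weights, 666 after quantile normalization and 677 with 12 zygote samples, an alternative chosen after seeing the data. Restricted to protein-coding genes, 146 were higher. The count called lower was 200, and it became 1729 with 6 samples, 566 with the 18 polysome samples, 1973 with group weights, 378 with 0.1 FPKM added, 536 with 1 FPKM added, 416 with no filter, 496 after quantile normalization and 888 with 12 zygote samples. For polysome against NP RNA the count of 23 became 255 with group weights, 9 with 0.1 FPKM added, 14 with 1 FPKM added, 75 with no filter, 49 after quantile normalization and 376 with 12 zygote samples. Taking gradient pairs as replicate block, chosen after seeing the data, left 2 genes over 18 pairs (612 at an unadjusted p under 0.05) and 0 over the 6 zygote pairs (1485). For the first against the second mitosis the count of 1889 became 2957 with the 18 polysome samples. When 1 sample was left out, the counts ranged from 177 to 225 higher, 95 to 139 lower, 8 to 19 for polysome against NP RNA and 1516 to 1583 between mitoses. The fit to the 6 samples without a block and the weighted fit gave more calls in both directions; the cause was not tested, and the median SD per gene was 0.234 in zygote and 0.562 in zygote M. The median over all genes moved from -0.43 to 0.0048 after quantile normalization and to -0.67 with equal FPKM sums. The elongin list lost its direction without zygote M B (-0.08) and the minor genome activation list with a replicate block on the 6 samples (-0.52). The cytosolic ribosomal protein list did so after quantile normalization (0.01). The stress and p53 list reached 0.16 with a filter of at least 1 FPKM. The mTOR list ran from -0.33 with equal FPKM sums to 0.60 with that filter. Replicate letters B and C are shared by the groups. The deviations of same-lettered samples from their group means correlated at r = 0.0360 and 0.0158. Whether a letter marks a shared batch was not tested. With a replicate block over all samples 248 genes were higher and 127 lower, 26 differed between polysome and NP RNA and 1700 between mitoses, and with a replicate block on the 6 samples 218 were higher and 234 lower. No called gene named here changed direction under these alternatives. Values near 0.01 FPKM rest on few fragments at this depth.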
